A study of Nothobranchius furzeri and Aphyosemion australe and Iconisemion striatum with 145 samples.

Results

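The genes described here encode the nuclear pore complex, the carriers that move proteins and RNA through it, the Ran cycle that gives this traffic its direction, and the lamina and linker proteins of the nuclear envelope. They were chosen by name, as every row of the African turquoise killifish count table whose symbol fits a fixed pattern of nucleoporin, importin, exportin, Ran, mRNA export, lamin and envelope names. The choice was made with earlier results of these data known. The pattern found 75 genes of the 25122 listed. Each RNA-seq library came from 8 to 10 pooled embryo bodies at the pre-diapause stage, with 15 to 22 somites, Kupffer's vesicle present and no heartbeat yet; the yolk, chorion and enveloping layer had been dissected away. The African turquoise killifish, *Nothobranchius furzeri* (GRZ strain), contributed 4 such libraries, from the first breeding of young fish, whose embryos mostly were expected to pass over diapause. Lyretail (6 libraries) and red-striped killifish (5 libraries) were sampled at the same stage, but their 38810 features carry no symbols and the genes were not analysed in them; the single-embryo knockout libraries were not analysed here either. All values below therefore belong to 1 group, compared with nothing but its own spread and the other genes of the same table.

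The nuclear pore is built from a symmetric scaffold of Y complexes and inner rings, a central channel lined with phenylalanine-glycine repeats, filaments on the cytoplasmic side and a basket on the nuclear side. Importins bind cargo in the cytoplasm and release it where Ran carries GTP, whereas exportins bind cargo together with Ran-GTP; the exchange factor RCC1 on chromatin and the activating protein RanGAP1 in the cytoplasm keep the 2 forms of Ran apart. Beneath the membrane, lamins form a meshwork that anchors chromatin, and SUN and nesprin proteins link it to the cytoskeleton. The roles given here are known from yeast, frog, mouse and human cells and are stated as background, not as results in killifish.

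Levels are given in CPM, a gene's share of the uniquely aligned reads counted in its library, per 1000000 counts. CPM are not divided by gene length, so a long and a short gene of equal CPM differ in transcript number, and levels of different genes were not ranked against each other as amounts of RNA. In pools of whole embryo bodies, fewer cells of a type and less RNA per cell cannot be told apart. Totals of the 4 libraries lay between 25985703 and 41191533 counts, the most in library 2, and the 10 most abundant genes took between 6.20% and 7.15% of them. Muscle, neural and notochord markers were detected in every library, the symbols searched for the enveloping layer had no row in the table, and transthyretin, the only yolk syncytial marker with a row, stood at 3.69 to 8.08 CPM. The labels call the pools separate replicates but do not say which parents they came from, so the spread between them may be partly technical.

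Nearly the whole set was expressed. Of the 75 genes, 72 (96%) reached 1 CPM in every library, against 53.7% of all genes listed and 75% of the 10533 rows that carry a symbol. The 3 that did not were *lmna*, which encodes lamin A/C, *ipo5*, an importin for ribosomal and other proteins, and *ranbp10*. The median level of the 75 genes was 37.6 CPM, against 2.38 CPM for all genes listed and 14 CPM for the 13479 genes at 1 CPM or more in every library; 71 of the 75 lay above the first of these medians and 59 above the second. Together the genes took 0.783%, 0.811%, 0.636% and 0.763% of the counts in libraries 1, 2, 3 and 4.

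**Figure D1:**
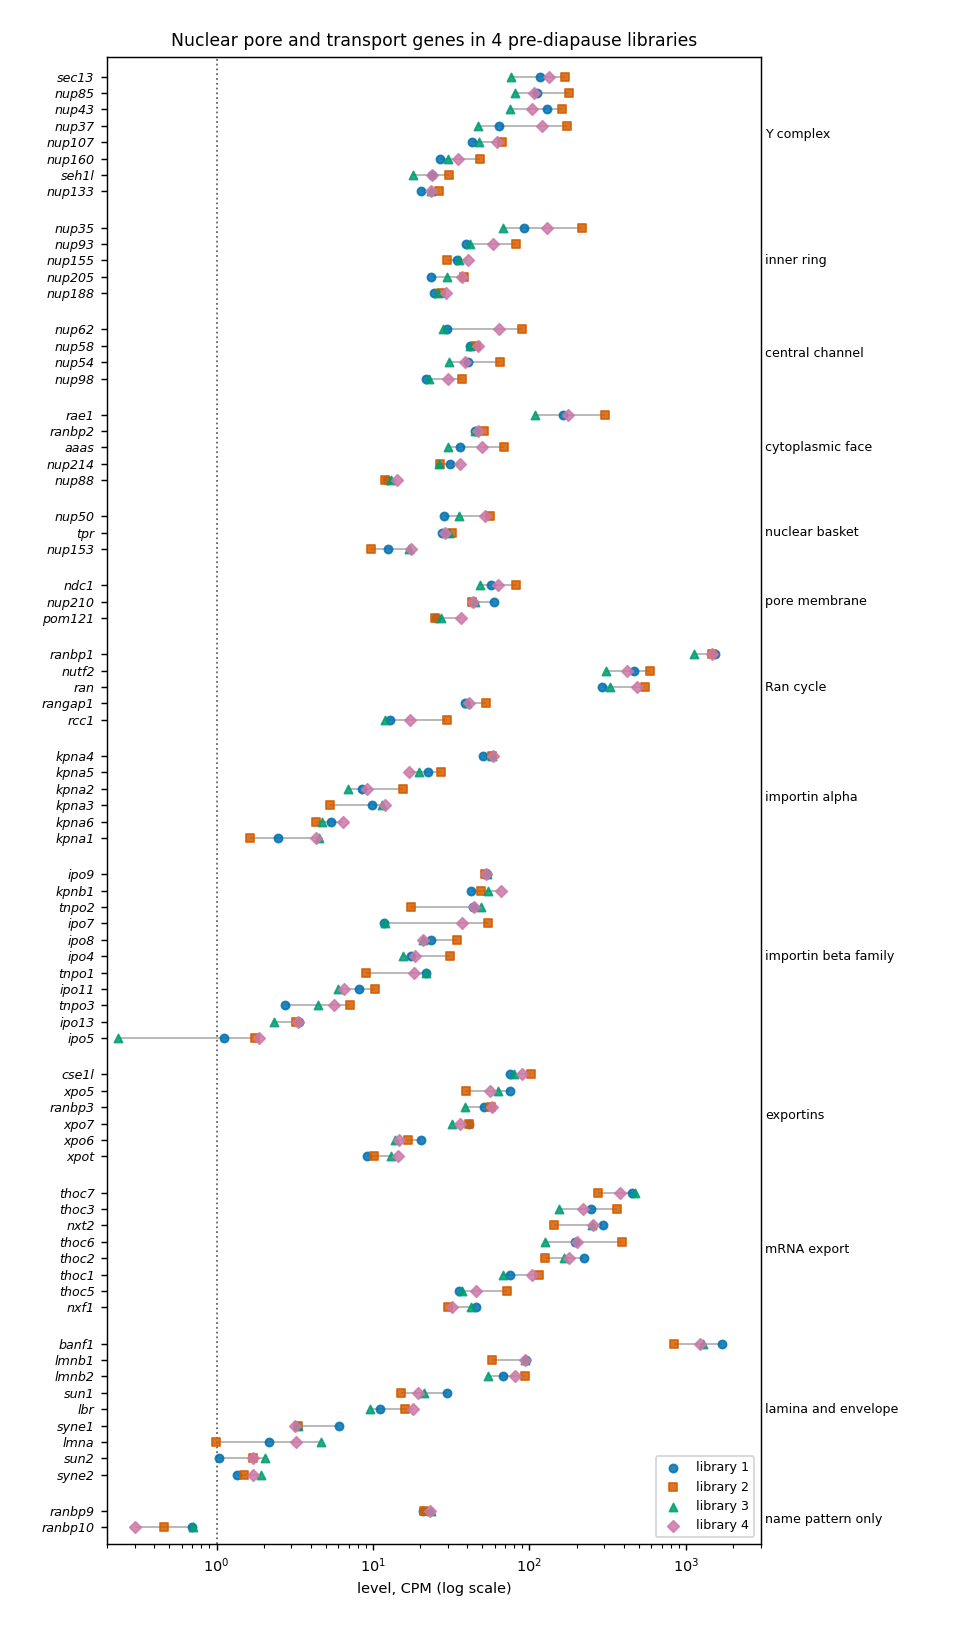
Level in CPM (log axis) of each of the 75 genes in the 4 pre-diapause libraries, grouped by role; each symbol is 1 library, the grey line spans the 4, and the dotted line marks 1 CPM. The Ran-binding protein gene *ranbp1* and the chromatin-bridging gene *banf1* lie between 841 and 1692 CPM, whereas *ranbp10* lies below 1 CPM in every library.

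The Y complex, the outer scaffold of the pore, was represented by 8 genes, all at 1 CPM or more. Among them *nup37* varied most, with 64.0, 174, 47.0 and 121 CPM in libraries 1, 2, 3 and 4, a coefficient of variation (CV, the SD as a percent of the mean) of 57.0%. Its highest library was 3.71-fold above its lowest, while counting error alone would give a CV of 1.69%. The gene *nup133* varied least, with 20.3, 26.3, 23.3 and 23.6 CPM and a CV of 10.5%. All 8 genes had their highest level in library 2, against 34.7% of the 13479 genes at 1 CPM or more in every library. They are *nup107*, *nup133*, *nup160*, *nup85*, *nup37*, *nup43* and also *sec13* and *seh1l*, which serve too outside the pore, the first in vesicle coats and both in nutrient signalling. Their summed level was 535, 857, 398 and 611 CPM in libraries 1, 2, 3 and 4. The 8 of 8 held under both other library scalings, edgeR's TMM and DESeq2's size factors. It covers only the Y complex genes that fit the name pattern. *ahctf1*, whose product ELYS seats the complex on chromatin, lies outside the pattern. It was lowest in library 2, as were 36.6% of all genes at 1 CPM or more in every library.

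The inner ring, which lines the pore and holds the channel proteins, had 5 genes. *nup35*, the membrane-contacting subunit, had 92.5, 217, 68.2 and 129 CPM (CV 51.5%), and *nup93*, the hub that binds the channel trimer, ranged from 39.5 to 82.0 CPM. The large subunits *nup188*, *nup205* and *nup155* varied by 7.09%, 20.9% and 12.2%. Thus *nup35* was 3.19-fold apart between libraries and *nup188* 1.18-fold. In library 2 the level was the highest for 3 of the 5 genes and the lowest for *nup155*. Of all genes at 1 CPM or more in every library, 34.7% were highest and 36.6% lowest there.

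In the central channel, *nup62* had 29.8, 89.0, 28.0 and 63.6 CPM (CV 55.6%). Its partners in the channel trimer were *nup58*, at 41.8, 45.8, 41.5 and 47.0 CPM (CV 6.39%), and *nup54*, between 30.6 and 64.9 CPM (CV 33.8%). So the 3 genes of a single protein complex differed in their spread: libraries 2 and 4 were above 1 and 3 for *nup62*, whereas the 4 values of *nup58* lay within 1.13-fold. The gene of the fourth channel protein, *nup98*, ranged from 21.7 to 36.9 CPM.

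On the cytoplasmic face, *rae1*, an mRNA export factor that docks on Nup98, had 165, 306, 109 and 175 CPM (CV 44.4%). *ranbp2*, the giant filament protein that binds Ran and SUMO-modified RanGAP1, was steady at 44.9, 51.4, 44.8 and 46.8 CPM (CV 6.54%). The ALADIN gene *aaas* ranged from 30.0 to 68.8 CPM, whereas *nup214* and *nup88*, which form a subcomplex at the export side, ranged from 26.6 to 36.1 and from 11.9 to 14.3 CPM. The highest value fell in library 2 for *rae1*, *ranbp2* and *aaas* and in library 4 for *nup214* and *nup88*. That of *nup88* moved to library 3 under TMM and DESeq2. Of all genes at 1 CPM or more in every library, 34.7% were highest in library 2 and 18.2% in library 4.

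For the nuclear basket, *tpr*, its main filament protein, varied by 6.32%, *nup153*, its anchor, by 26.2% and *nup50*, which helps release importin cargo, by 30.3%. Within this subcomplex the count of *tpr* exceeded that of *nup153* in 4 of 4 libraries, with a log2 ratio of 1.12 ± 0.44 (SD, n = 4). Among the membrane-spanning proteins, *nup210* had 59.3, 42.8, 44.8 and 43.3 CPM. Library 1 stood apart from the other 3 for this gene by Dixon's test for a single outlying sample, though not under TMM or DESeq2. With scaling to the total the test also picks 4.71% of all genes at 1 CPM or more in every library. The other pore membrane genes, *ndc1* and *pom121*, ranged from 48.1 to 82.1 CPM and from 24.9 to 36.7 CPM.

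**Figure D2:**
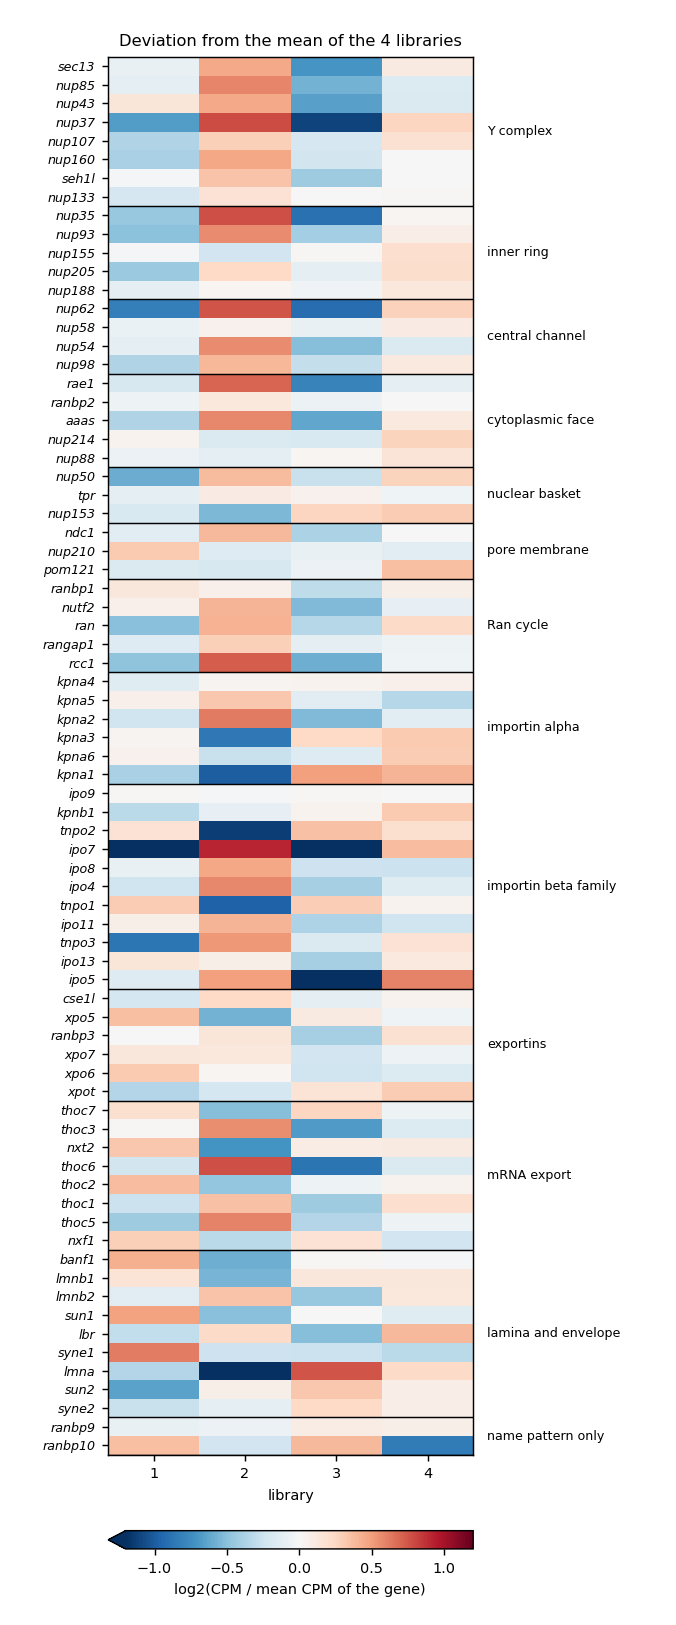
Deviation of each gene in each of the 4 libraries from the gene's own mean over the libraries, as log2(CPM / mean CPM), with genes in rows grouped by role. The 8 Y complex rows are all above their mean (red) in library 2, against 3 of the 9 lamina and envelope rows. Of the 13479 genes at 1 CPM or more in every library, 6711 are above their mean there.

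The Ran cycle held 3 of the 4 genes with the most reads, the other being *banf1*. *ranbp1*, whose product helps RanGAP1 to strip Ran of GTP in the cytoplasm, had 1541, 1465, 1132 and 1468 CPM (CV 13.1%). The gene of the GTPase itself, *ran*, had 292, 551, 325 and 484 CPM, so that libraries 2 and 4 lay above 1 and 3. *nutf2*, the carrier that returns Ran-GDP to the nucleus, had 467, 593, 310.3 and 417 CPM.

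The 2 regulators that set the Ran gradient were read at lower levels. The exchange factor *rcc1* had 12.8, 29.6, 11.9 and 17.2 CPM (CV 45.6%), and *rangap1* had 38.6, 52.5, 40.1 and 41.3 CPM (CV 14.7%). Library 2 was the highest for both, by a wider margin for *rcc1*, as it was for 34.7% of all genes at 1 CPM or more in every library. The log2 ratio of *rcc1* to *rangap1* counts was -1.36 ± 0.41 (SD, n = 4), between -1.75 in library 3 and -0.82 in library 2. A second, numbered row that the RefSeq table names *rangap1b* had 18.3, 18.1, 19.7 and 23.6 CPM and is not among the 75, so the total for RanGAP1 is higher than the named row.

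Importin alpha proteins recognise the classical nuclear localisation signal and bridge it to importin beta. Of the 6 named genes, *kpna4* was steady at 50.8, 57.4, 57.8 and 58.7 CPM (CV 6.44%), and *kpna5* had 22.5, 27.1, 19.7 and 17.1 CPM. *kpna3* had 9.85, 5.32, 11.3 and 12.0 CPM, and *kpna1* had 2.46, 1.63, 4.54 and 4.29 CPM. Both of these were lowest in library 2, as were 36.6% of all genes at 1 CPM or more in every library. *kpna6* had 5.43, 4.35, 4.72 and 6.47 CPM, and the row named *kpna2* had 8.50, 15.5, 6.96 and 9.19 CPM, highest in library 2. Between libraries, 3 of the 6 genes varied 2-fold or more, against 36.1% of all genes at 1 CPM or more in every library.

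The identity of the *kpna2* row is uncertain. The RefSeq table, which is annotated on a later assembly than the one counted, gives the symbol *kpna2* to a numbered row of the count table, LOC107376251, which had 159, 361, 138 and 223 CPM. With the named row the log2 ratio of *kpna2* to *kpna4* counts was -2.55 ± 0.48 (SD, n = 4), and with the numbered row it was 1.87 ± 0.59, with the opposite sign. For *kpna2* over *kpna6* the ratio was 0.88 ± 0.63 with the named row and 5.30 ± 0.72 with the numbered one. Both rows had their highest value in library 2. The summed level of the 6 importin alpha genes was 99.6, 111, 105 and 108 CPM with the named row and 249.8, 457, 236 and 322 CPM with the numbered row, so its span was 1.12-fold or 1.93-fold.

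Importin beta itself, *kpnb1*, had 42.2, 49.3, 54.3 and 65.6 CPM, highest in library 4. The other carriers of this family, which bind cargo directly, included both extremes of spread in the whole set. *ipo7*, an importin for ribosomal proteins and histone H1, had 11.7, 54.2, 12.0 and 37.1 CPM, a CV of 72.2% and a 4.64-fold span. *ipo9*, an importin for histones and actin, had 53.9, 52.3, 53.8 and 53.1 CPM, a CV of 1.38% that is below the 2.40% of counting error alone. Thus *ipo7* was high in libraries 2 and 4 and low in 1 and 3, whereas *ipo9* took the same share of the reads in all 4 within counting error. This steadiness of *ipo9* belongs to the scaling on totals, since its CV was 7.13% under TMM and 6.65% under DESeq2, while that of *ipo7* was 71.6% and 71.5%. Libraries 2 and 4 were also above 1 and 3 for *nup62*, *ran* and the markers *sox3* and *foxa2*, but not for *sox2* and *pax6*. How many of all genes had this order was not counted.

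The transportins *tnpo1* and *tnpo2*, related carriers of RNA-binding proteins, were both lowest in library 2, at 9.01 CPM of 9.01 to 21.8 CPM for *tnpo1* and at 17.6 CPM of 17.6 to 49.3 CPM for *tnpo2*. *tnpo3*, which imports splicing factors with serine-arginine repeats, ranged from 2.73 to 7.16 CPM and was highest there. *ipo4*, *ipo8* and *ipo11* were also highest in library 2 and ranged from 15.6 to 30.9, from 20.8 to 34.2 and from 5.98 to 10.3 CPM. In the importin beta family, library 2 gave the highest level of 5 of 11 genes, against 34.7% of all genes, and the lowest of 3, against 36.6%; the last count was 2 under TMM and DESeq2, where *ipo9* was lowest in library 1.

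The family's lowest mean levels were those of *ipo13* and *ipo5*. *ipo13*, a carrier that works in both directions, had 3.39, 3.23, 2.33 and 3.32 CPM, and library 3 stood apart by Dixon's test, though not under TMM. *ipo5* had 1.12, 1.75, 0.236 and 1.88 CPM, the third from 8 counts. Library 3 was thus the lowest for both of these carriers, as it was for 38.7% of all genes at 1 CPM or more in every library.

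**Figure D3:**
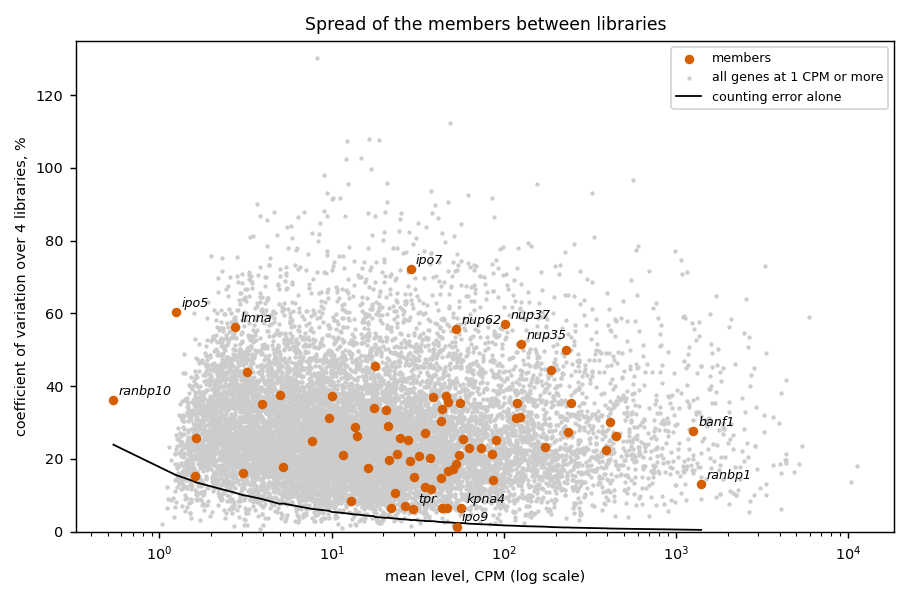
Coefficient of variation over the 4 libraries (percent) against mean level in CPM (log axis) for the 75 genes (orange) and the 13479 genes at 1 CPM or more in every library (grey); the line is the variation that counting error alone would give at the genes' depth. *ipo7* lies at 72.2% and *ipo9* at 1.38%, below the line.

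Among the exportins, *cse1l*, which returns importin alpha to the cytoplasm, ranged from 75.0 to 103 CPM. *xpo5*, the exporter of microRNA precursors, ranged from 39.3 to 74.9 CPM and was lowest in library 2. The tRNA exporter *xpot* ranged from 9.12 to 14.4 CPM, the actin exporter *xpo6* from 13.9 to 20.3 CPM and *xpo7* from 32.1 to 41.4 CPM. With the cofactor *ranbp3*, described below, this group held 6 genes. None of the 6 varied 2-fold between libraries, against 36.1% of all genes at 1 CPM or more in every library. A numbered row with the RefSeq symbol *xpo4*, not among the 75, was 2.04-fold apart. The summed level of the 6 genes was 272, 266, 240.4 and 268 CPM. CRM1, the main exporter of proteins with leucine-rich signals, has no row named *xpo1*. Its cofactor *ranbp3* ranged from 38.6 to 57.8 CPM, and a numbered row with the RefSeq symbol *xpo1b* (LOC107375520, not among the 75) had 84.5, 44.9, 73.0 and 68.2 CPM, lowest in library 2.

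The mRNA export genes were the THO complex, which couples transcription to packaging for export, and the receptor NXF1 with its partner NXT. *thoc6* had 197, 392, 125 and 203 CPM (CV 49.8%), and *thoc3* had 248, 362, 154 and 219.7 CPM. In contrast, *thoc7* had 450.5, 276, 471 and 377 CPM, and *thoc2*, the largest scaffold subunit, had 224, 126, 166 and 179 CPM. So *thoc6* and *thoc3* were highest in library 2 and *thoc7* and *thoc2* lowest there. *thoc1* and *thoc5* ranged from 67.5 to 116 CPM and from 35.4 to 71.9 CPM, both highest in library 2. The receptor *nxf1* ranged from 30.0 to 45.6 CPM, while its partner *nxt2* had 294, 143, 250.4 and 254 CPM, both lowest in library 2. Library 2 was thus highest for 4 of the 8 genes and lowest for 4. Of all genes at 1 CPM or more in every library, 34.7% were highest and 36.6% lowest there.

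Of the 9 nuclear lamina and envelope genes, only *lmnb2* was highest in library 2. *banf1*, a small protein that bridges chromatin and the envelope, had 1692, 841, 1278 and 1239.5 CPM. The B-type lamin gene *lmnb1* had 95.4, 57.8, 93.7 and 93.7 CPM, with library 2 apart by Dixon's test, though not under TMM or DESeq2. The other B-type lamin, *lmnb2*, had 67.7, 93.7, 54.0 and 80.6 CPM, and was highest in the library where *lmnb1* was lowest.

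*lmna* had 2.16, 0.995, 4.63 and 3.22 CPM, from 41 counts in library 2 upward. It was thus read in every library, below 5 CPM. In each of the 4 libraries both B-type lamins had more counts than *lmna*, with log2 ratios of 5.11 ± 0.66 for *lmnb1* and 4.91 ± 1.23 for *lmnb2* (SD, n = 4). The ratio of *lmnb2* to *lmna* spanned 2.99 on the log2 scale between libraries, the widest span of the 8 pairs computed.

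The linker genes had rows at different levels. *sun2* and *sun1*, the inner membrane partners, had 1.04, 1.70, 2.03 and 1.71 CPM and 29.9, 15.1, 21.3 and 19.3 CPM, a log2 ratio of -3.69 ± 0.75 (SD, n = 4). Of the nesprins, *syne2* had 1.35, 1.51, 1.92 and 1.71 CPM, and *syne1* had 6.04, 3.33, 3.30 and 3.15 CPM. Library 1 was apart for *syne1* by Dixon's test, though not under TMM or DESeq2. Reads of the nesprins were also found on numbered rows that RefSeq names *syne1a*, *syne2a*, *syne2b* and *syne3*, at means of 6.26, 5.84, 1.43 and 12.1 CPM, so the named rows hold only some of them. The lamin B receptor *lbr*, which binds heterochromatin, ranged from 9.61 to 17.9 CPM. In library 2 the level was the highest for 1 of the 9 lamina and envelope genes, against 34.7% of all genes, and the lowest for 4, against 36.6%, and their summed level was 1907, 1031, 1468 and 1461 CPM, most of it *banf1*.

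*ranbp9* and *ranbp10* share only the name pattern, since their products are known as parts of a ubiquitin ligase and not as carriers. *ranbp9* ranged from 20.8 to 23.6 CPM (CV 6.41%), and *ranbp10* had 0.693, 0.461, 0.707 and 0.302 CPM, from 9 to 24 counts. Both are counted in the 75.

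**Figure D4:**
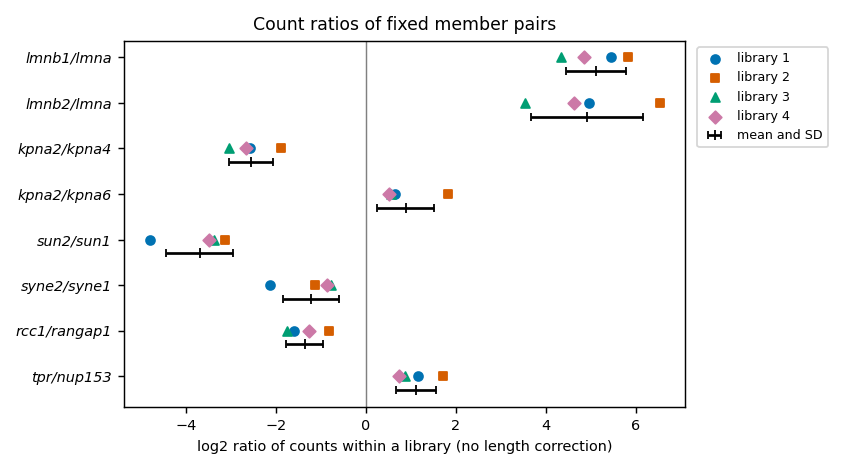
Log2 ratio of the counts of 8 pairs of genes within each library (symbols), with the mean and SD over the 4 libraries (bars); counts are not corrected for gene length. For *lmnb2* over *lmna* the 4 libraries span 2.99 on the log2 scale, against 0.92 for *rcc1* over *rangap1*.

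The 8 ratios were computed from counts with 1 added to each gene, and all 4 libraries shared their sign in each pair. With 4 libraries flipping the signs of the ratios in every way, an exact permutation test taken two-sided, cannot give less than p = 0.125, and all 8 pairs had this value before and after Benjamini-Hochberg adjustment. Because the length of each transcript enters the ratio as a constant, its sign and size say little about amounts of RNA, whereas its spread over libraries does not depend on length.

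Across the whole set, library 2 was the one in which most genes peaked. Of the 72 genes at 1 CPM or more in every library, 37 (51.4%) had their highest level in library 2, against 34.7% of the 13479 genes that met the same limit. The highest level fell in library 1 for 15 (20.8%, against 33.1%), in library 3 for 6 (8.33%, against 14%) and in library 4 for 14 (19.4%, against 18.2%). The lowest level fell in library 3 for 29 (40.3%, against 38.7%), in library 1 for 21 (29.2%, against 14.2%), in library 2 for 19 (26.4%, against 36.6%) and in library 4 for 3 (4.17%, against 10.5%). The genes share libraries and are not independent of one another, so these shares are a description of 4 pools.

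**Figure D5:**
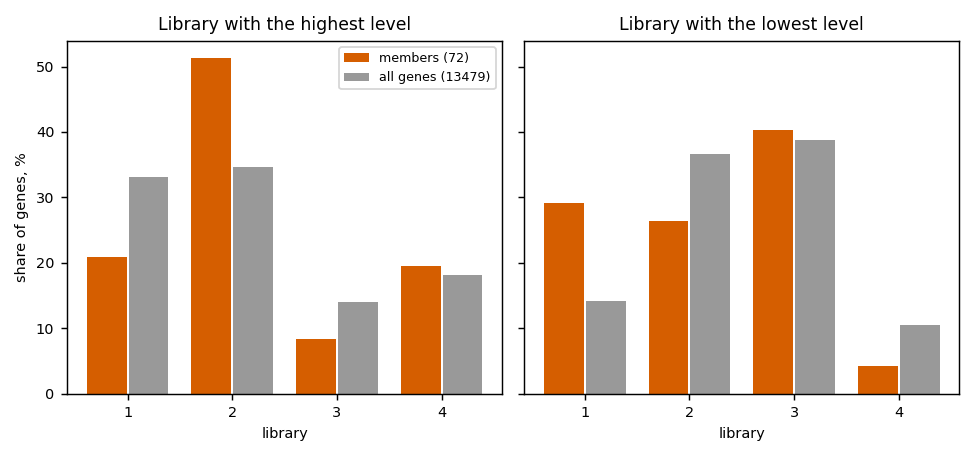
Share of genes (percent) with their highest level (left) and lowest level (right) in each of the 4 libraries, for the 72 genes of the set at 1 CPM or more in every library (orange) and for all 13479 such genes (grey). In library 2 the highest level falls for 51.4% of the set and 34.7% of all genes.

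The scaling of the libraries moved some of these counts. TMM shifted every gene by -0.11 on the log2 scale in library 1 and by 0.13 in library 3, against scaling to the total, and by -0.01 and -0.02 in libraries 2 and 4. Over all 75 genes the highest level then fell in libraries 1, 2, 3 and 4 for 7, 38, 19 and 11 of the 75 genes, against 20.2%, 36.2%, 28.6% and 15% of all genes that met the limit. With scaling to the total it had been 15, 37, 8 and 15 of the 75. DESeq2's size factors gave 10, 39, 19 and 7 of the 75, against 23.2%, 36.4%, 27.5% and 12.8% of all genes. Library 2 was thus the most frequent peak of the set under all 3 scalings. Libraries 1 and 4 tied for the next place with scaling to the total, and library 3 held it under TMM and DESeq2. Among the 9150 genes at 5 CPM or more in every library, the background with scaling to the total was 33.7%, 36.7%, 12.8% and 16.8% in libraries 1, 2, 3 and 4.

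Several other values moved with library 2. It was the deepest library, and it held the highest sum of the notochord and floor plate markers *shh* and *foxa2* (77.3 CPM, against 33.0 to 59.6 CPM in the others). The 5 neural markers went both ways: their sum was also highest there (352 CPM, against 236 to 339 CPM) through *sox3* and *neurog1*, while *sox2*, *pax6* and *elavl3* were lowest there, at 9.44, 8.64 and 34.5 CPM. Muscle and somite markers summed to 223 CPM there and to 154 to 224 CPM in the others, while the endoderm marker *gata6* was lowest there, at 7.53 CPM, against 15.1 to 17.9 CPM. Of the blood and vessel markers, *fli1* was lowest in library 2, at 5.34 CPM, against 15.5 to 23.1 CPM. The other, *tal1*, had 15.4 CPM there, against 4.57 to 18.1 CPM. Transthyretin was lowest there, at 3.69 CPM, against 5.67 to 8.08 CPM. The part of depth, stage or cell makeup in the levels of the pore genes was not tested.

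The spread of the set as a whole was close to that of all genes that met the limit. Its median CV was 25.5%, against 25.1% for all genes at 1 CPM or more in every library. Between the highest and the lowest library, 26 of the 75 genes were 2-fold or more apart (34.7%), and 23 of the 72 that met the limit (31.9%), against 36.1% of all genes that met it. Without library 2, 7 of the 75 were 2-fold apart, against 12.8% of all genes, and without library 3, 16 were, against 25.7%. By Dixon's test, 4 of the 75 genes had 1 library apart, against 4.71% of all genes; chance alone picks about 1 of 20 groups of this size.

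Some structures held both steady and variable genes, and others held only 1 kind or neither. A CV under 10% was found for 8 genes, namely *ipo9*, *tpr*, *nup58*, *ranbp9*, *kpna4*, *ranbp2*, *nup188* and *nup88*, and a CV over 40% for 10, namely *ipo7*, *ipo5*, *nup37*, *lmna*, *nup62*, *nup35*, *thoc6*, *rcc1*, *rae1* and *kpna1*. Of the 72 genes at 1 CPM or more in every library, 8 (11.1%) were under 10%, against 6.23% of all genes that met the limit, and 8 (11.1%) were over 40%, against 16.4%. Under TMM and DESeq2 6 and 10 of the 75 genes were under 10% and over 40%, and *tpr*, *ranbp9*, *kpna4* and *nup88* passed to 10% or more while *ranbp1* and *xpo7* fell below it. With scaling to the total, the inner ring, the central channel, the cytoplasmic face, importin alpha and the importin beta family each held genes of both kinds. Importin alpha no longer did under TMM and DESeq2, where the CV of *kpna4* was 11.9% and 10.8%. The Ran cycle did so only under TMM and DESeq2, with *ranbp1* at 7.47% and 7.78% and *rcc1* at 45.0% under each. By summed level of the named rows the widest spans were those of the Y complex (2.15-fold), the cytoplasmic face (2.09-fold), the inner ring (1.96-fold) and the central channel (1.92-fold). Sums weigh the genes with the most reads. In the mean sums, *rae1* held 189 of 325 CPM of the cytoplasmic face and *nup35* 127 of 276 CPM of the inner ring. These 2 spans thus do not stand for every gene of the structure. The exportins, counted with *ranbp3*, spanned 1.13-fold, and importin alpha 1.12-fold or 1.93-fold, depending on the *kpna2* row.

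Other genes of the pathway, outside the name pattern, were read in the same libraries. Of 36 symbols listed, 26 had a row, all 26 reached 1 CPM in every library, and 14 (53.8%) were 2-fold or more apart, against the 36.1% of all genes. *snupn*, the adaptor that brings spliceosomal snRNPs to importin beta, had 19.8, 74.7, 13.97 and 40.6 CPM. It was high in libraries 2 and 4 as *ipo7* was, an order not counted over all genes. *ddx39a*, a helicase of mRNA export, had 546, 1419, 437 and 831 CPM. The SUMO gene *sumo2*, whose product modifies RanGAP1 and many nuclear proteins, had 426, 139, 298 and 230.4 CPM, lowest in library 2. *ahctf1*, whose product ELYS seats the Y complex on chromatin, ranged from 4.88 to 13.6 CPM. It was lowest in library 2, as were 36.6% of all genes at 1 CPM or more in every library. The 8 Y complex genes of the name pattern were all highest there.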

How the data were processed

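The 4 African turquoise killifish pre-diapause libraries were used, each from 8 to 10 pooled embryo bodies. The authors deposited whole-number read counts per gene, without normalization. Their methods state trimming with Trim Galore 0.4.5, alignment with STAR 2.7.1a to the species' genome, a SAMtools 1.5 filter that kept uniquely aligned reads only, and featureCounts (Subread 2.0.1). Neither of 2 near-identical paralogs thus receives the reads they share, which leaves paralogous rows uncertain, and a strand setting is not given in the sources used here. The methods state normalization with DESeq2 1.30.1; the deposited values are the raw counts.

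Counts were scaled to CPM on the library total (25985703 to 41191533 counts) with pandas 2.3.3 (Python 3.11.15, numpy 2.4.6) and drawn with matplotlib 3.10.9. Dixon's ratio, the sign flips and the Benjamini-Hochberg adjustment were coded directly in Python. Alternatives were TMM (edgeR 4.0.16) and size factors (DESeq2 1.42.0) in R 4.3.3, limits of 0.5 or 5 CPM or 10 counts in place of 1 CPM, 0 or 5 counts added to ratios in place of 1, and leaving out each library. A library was called apart where Dixon's ratio exceeded 0.829, the 95% critical value for 4 samples; CVs were set beside that of Poisson counting, which covers counting error only. Duplicate libraries were checked for by chi-square per degree of freedom, which was 82.9 or more in all pairs, so all 4 were counted. Ratios were planned per kilobase of coding sequence, and counts without length were used instead, as no coding lengths were at hand. The pair *kpnb1* and *xpo1* was left out, since no row is named *xpo1*.

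Values per library are given for the 10 genes with the highest and the 6 with the lowest mean CPM, the 6 with the largest CV among those at 1 CPM or more, those that Dixon's test picks, and the Ran cycle, lamin, importin alpha, importin beta and CRM1 genes. Some further genes were given per library after their values were seen. The genes, lists and pairs were chosen with earlier results of these data known. RefSeq symbols come from the NfurGRZ-RIMD1 annotation, of another assembly than the one counted, and were used for names only. Of the 75 genes, 61 carry the same symbol there. The 14 that do not are *ipo13*, *ipo5*, *lmna*, *nup54*, *nup62*, *nxf1*, *ranbp3*, *rangap1*, *sun1*, *syne1*, *syne2*, *tnpo2*, *tpr* and *xpo5*. Their names rest on the count table alone.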

Additional observations from a re-analysis of the deposited data

Results flagged for a closer look

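In 4 of the 75 genes, and in 1 summed role, Dixon's test set a single library apart from the other 3. The 4 values were 2.33 CPM of *ipo13* in library 3, 57.8 CPM of *lmnb1* in library 2, 6.04 CPM of *syne1* in library 1 and 59.3 CPM of *nup210* in library 1. The exportins, counted with the CRM1 cofactor *ranbp3*, summed to 240.4 CPM in library 3, against 266 to 272 CPM in the other 3 libraries. This sum was not screened under other scalings or without *ranbp3*. That gene was itself lowest in library 3, at 38.6 CPM, against 50.9 to 57.8 CPM. TMM shifted every gene by 0.13 on the log2 scale in library 3 and by -0.11 in library 1. In all, 88 groups of 4 values were screened, and chance flags about 1 in 20 of such groups. The picks depended on the scaling: none of the 4 genes was picked under TMM, which picked 4 others, and 1 of the 4, *ipo13*, was among the 6 picked under DESeq2's size factors. Whether a technical step or the embryos set these values was not tested.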

How the results depend on the processing

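No paired analysis was possible because named genes were counted in 1 group only, so that no groups share replicate numbers in a test. The mean level of each gene moved by less than 1 SD under all 150 values from other scalings. It also did so in all 300 with a library left out. Leaving out 1 of 4 libraries cannot move a mean by 1 SD, so these 300 values could not come out otherwise. The number of genes at the detection limit, 72 at 1 CPM, was 65 at 5 CPM, 80 with the numbered rows and 71 to 74 under the other alternatives. Leaving out a library or adding equal counts to both genes could not turn a ratio, as all 4 libraries shared its sign. The direction of each ratio held under the alternatives run, except that the log2 ratio of *kpna2* to *kpna4* was 1.87 with the numbered row, against -2.55. The span of summed importin alpha was 1.93-fold with that row, against 1.12-fold. The median of the background was 14 CPM over genes at 1 CPM or more in every library and 9.67 CPM over rows with a symbol, against 2.38 CPM over all genes listed. Genes 2-fold or more apart numbered 7 to 25 with a library left out, against 26, with 7 without library 2 and 16 without library 3. The highest level fell in library 1 for 7 genes under TMM (15 with scaling to the total), in library 3 for 19 under TMM and 19 under DESeq2 (8), and in library 4 for 7 under DESeq2 (15). The CPM per kilobase alternative was not run, for want of coding lengths, nor the higher copy alone, since no pair summed copies. The cause of these moves was not tested. At low counts (8 for *ipo5* in library 3, 9 for *ranbp10* in library 4) the depth limits the value.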

Other observations

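Beside the named genes, 11 numbered rows carry RefSeq symbols that fit the same name pattern, and 8 of them reached 1 CPM in every library. The emerin row (*emd*, an inner membrane protein that binds *banf1*'s product) had 285, 127, 224 and 226 CPM in libraries 1, 2, 3 and 4. It was lowest in library 2, as were *banf1* and 36.6% of all genes at 1 CPM or more in every library. The *xpo4* row ranged from 2.58 to 5.28 CPM and the *tnpo2b* row from 0.884 to 1.96 CPM. The row with the symbol *kpna7*, an importin alpha of the egg and early embryo in mammals, had 0, 4, 0 and 0 counts.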
